A study of Mus musculus with 24 samples.

Results

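The genes examined here are 9 members of the interleukin-1 (IL-1) and interleukin-18 (IL-18) receptor family and its closest signalling partners, out of 55376 gene symbols counted in 24 bulk mRNA-seq libraries of mouse bone marrow cells. They were chosen by symbol: the receptor genes Il1r1, Il1r2, Il1rap, Il1rl1, Il18r1 and Il18rap, the soluble antagonist gene Il1rn, the adaptor gene Myd88 and the kinase-like inhibitor gene Irak3. All 9 were present in the count files. Il1r1 was picked because its counts were lower in TTPΔARE cells and higher in MPP3 cells, so these differences of Il1r1 are given as a description, with no test. The study compared male mice homozygous for TTPΔARE, a deletion of an AU-rich element in the 3′ untranslated region (UTR) of Zfp36 that leaves more tristetraprolin (TTP), with wild-type (WT) littermates. The deletion is carried in all cells of the animal, and the labels give no treatment. Haematopoietic stem cells (HSCs, sorted as Lineage- Sca1+ cKit+ CD34- Flk2- CD150+) came from young adult mice, as 4 Y-WT and 4 Y-TTPΔARE libraries, and from middle-aged mice about a year old, as 5 M-WT and 3 M-TTPΔARE libraries. MPP3 cells, myeloid-biased multipotent progenitors, came from young mice, as 4 Y-WT and 4 Y-TTPΔARE libraries.

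IL-1 signals through IL1R1, which binds the cytokine and then recruits the accessory chain IL1RAP to form the signalling complex. IL1R2 binds the same cytokine but lacks a signalling domain and acts as a decoy, and the protein of Il1rn occupies IL1R1 without recruiting the accessory chain. IL-18 uses a parallel pair, IL18R1 for binding and IL18RAP as accessory chain, and IL-33 is bound by the protein of Il1rl1 (ST2), which also pairs with IL1RAP. The receptor complexes pass the signal through MYD88 to kinases of the IRAK family, and IRAK3 (IRAK-M) restrains that step. IL-1 is known to push HSCs towards myeloid output, and TTP is known to bind AU-rich stretches in 3′ UTRs and to promote the decay of those mRNAs.

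The libraries held 24261371 to 39934554 counts each. Zfp36 itself lay at 33.2 to 72.6 CPM (counts scaled to the size of the library) in Y-WT HSCs and at 83.3 to 113 in Y-TTPΔARE HSCs, at 43.6 to 64.2 in M-WT and 91.5 to 110 in M-TTPΔARE HSCs, and at 21.6 to 34.7 in Y-WT and 72.7 to 118 in Y-TTPΔARE MPP3 cells, so that the groups did not overlap in any of these contexts. Zfp36 passed the test of genotype in middle-aged HSCs (edgeR adjusted p = 0.00200) and MPP3 cells (0.000646) but not in young HSCs (log2 fold change 0.96, SE 0.21, adjusted p = 0.238). All 7 HSC markers examined (Procr, Slamf1, Hlf, Mecom, Fgd5, Ctnnal1 and Hoxb5) averaged over 1 CPM in every HSC group, and their sum was lower in the MPP3 libraries. The libraries differed in the counts of 1971 olfactory and vomeronasal receptor genes, a class not expected in blood: their sum was 598.5 to 1015 CPM in Y-WT HSC replicates 2 to 4, 64.4 CPM in Y-WT HSC replicate 1, and 20.5 to 482 CPM in the other 20 libraries. Those values are given beside the members with the strongest relation to them. The titles number the libraries of each age and cell type in separate runs, so age or cell type and library set cannot be told apart. The labels name no animals, although for the HSCs the study lists as many for each group of mice as there are libraries. The p-values measure the spread between these libraries.

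In the annotation of genome build GRCm38 (GENCODE M21), 5 of the members lie on the plus strand of chromosome 1 within a cluster of 477627 bases, in the order Il1r2 (chr1:40074079-40125231), Il1r1 (chr1:40225080-40317257), Il1rl1 (chr1:40429570-40465415), Il18r1 (chr1:40465552-40500854) and Il18rap (chr1:40515362-40551705), with the IL-36 receptor gene Il1rl2 between Il1r1 and Il1rl1. Il1rap lies on the plus strand of chromosome 16 (chr16:26581704-26730117), Il1rn on the plus strand of chromosome 2 (chr2:24336853-24351494), Myd88 on the minus strand of chromosome 9 (chr9:119335934-119341411) and Irak3 on the minus strand of chromosome 10 (chr10:120141648-120202130). Because the deletion raises a protein that binds AU-rich stretches, the longest annotated 3′ UTR of each member was searched on its sense strand for the pentamer ATTTA and for TATTTAT, each copy of which also holds the pentamer. The 3′ UTR of Il1r1, 3864 bases long, held 8 pentamers and 2 copies of the longer motif. Among 2109 genes with a 3′ UTR of like length (within 25%), 40.5% held at least as many pentamers and 27.6% at least as many longer motifs, so the count in Il1r1 was not unusual for its length. The paper names Il1r1 among predicted direct targets of TTP, from public data on RNA bound by TTP that were not examined here. The 3′ UTR of Il1rap held 8 and 3, shared or exceeded by 21.9% and 7.44% of genes of like length. Il1rl1 held 3 pentamers and 2 longer motifs, shared or exceeded by 80.2% and 23.9% of genes of like length. Il18rap held 4 and 1, shared or exceeded by 59.2% and 48.2%. Il18r1, Myd88 and Irak3 each held a single pentamer and no longer motif, and Il1r2, whose 3′ UTR is 24 bases long, and Il1rn held neither. The sites with the longer motif are shown for Il1r1, by which the set was chosen, for Il1rap, the member with the most of them, and for Il18rap, the accessory chain at the end of the cluster. The 2 sites of Il1rl1 are not shown. They are read 5′ to 3′ in GRCm38 with the motif in capitals, and a match is a description and not a binding site.
Il1r1, chr1:40314930-40314955, plus strand: cactgttggTATTTATagcacctacc
Il1r1, chr1:40316007-40316032, plus strand: aataatttaTATTTATactggtcaat
Il18rap, chr1:40550970-40550995, plus strand: tgttattaaTATTTATgccttgcata
Il1rap, chr16:26715676-26715701, plus strand: tggagatcaTATTTATaaacttgaaa
Il1rap, chr16:26717258-26717283, plus strand: atgtttttcTATTTATaggcccttct
Il1rap, chr16:26717418-26717443, plus strand: acacacttgTATTTATgataatgaga

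The members spanned a wide range of levels. In Y-WT HSCs, on the scale of CPM per kilobase of exon, the level of Irak3 was 29.6 ± 3.00 (SD, n = 4) and that of Myd88 29.2 ± 2.55, and the gap between them was smaller than their spread. Il18rap (3.36 ± 0.252), Il1rap (3.20 ± 0.0835) and Il1r1 (2.73 ± 0.430) formed a middle tier whose neighbours also lay within their spread. Il1r2 (1.02 ± 0.295) and Il18r1 (0.836 ± 0.337) were lower, and Il1rl1 (0.293 ± 0.225) and Il1rn (0.292 ± 0.212) lowest. In Y-WT MPP3 cells the order was headed by Myd88 (26.0 ± 3.69), then Irak3 (15.3 ± 1.03), Il1r1 (13.4 ± 3.35) and Il18rap (9.82 ± 2.35), and neighbours from Irak3 to Il18rap again differed by no more than the sum of their SDs. The receptor genes averaged 0.104 CPM per kilobase in Y-WT HSCs and between 0.0162 and 0.0479 in the other groups. Il1rn and Il1rl1 came within reach of that background in several groups, whereas the other members lay above it in every group. The middle tier depended on the length used: over the longest transcript instead of all exons Il1rap came to 8.05 CPM per kilobase in Y-WT HSCs, above Il18rap at 4.64 and Il1r1 at 2.99.

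**Figure D1:**
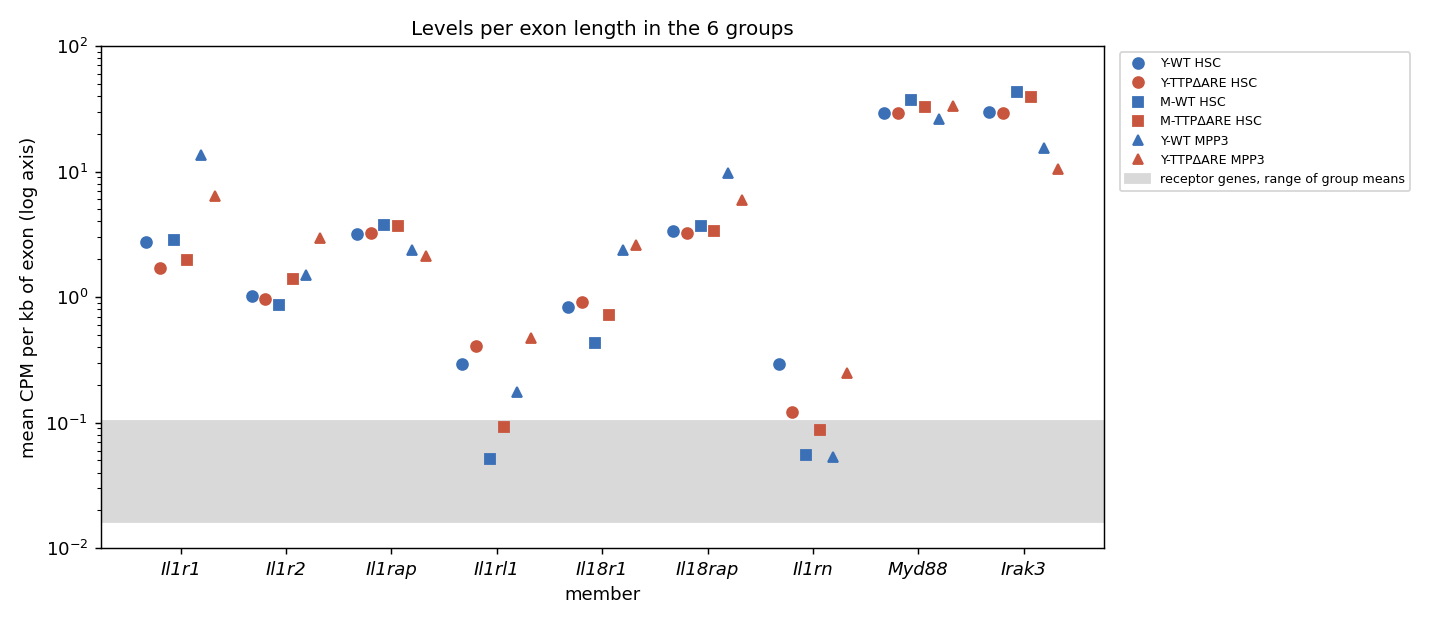
Mean CPM per kilobase of exon (log axis) of the 9 members in the 6 groups, with blue for WT and red for TTPΔARE, and the grey band for the range of group means of olfactory and vomeronasal receptor genes. Myd88 and Irak3 lie highest, Il1r1 and Il18rap are higher in MPP3 cells (triangles), and Il1rl1 and Il1rn reach down to the grey band.

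Il1r1, the signalling receptor for IL-1, was the member by which the set was chosen. In young HSCs its level was 14.4, 20.1, 15.8 and 19.2 CPM in the 4 Y-WT libraries and 7.88, 12.1, 11.3 and 11.9 CPM in the 4 Y-TTPΔARE libraries. In middle-aged HSCs it was 19.5, 16.5, 16.9, 18.1 and 18.8 CPM in M-WT and 11.3, 10.8 and 15.9 CPM in M-TTPΔARE. In MPP3 cells it was 59.6, 111, 81.3 and 90.0 CPM in Y-WT and 44.3, 42.9, 44.2 and 31.6 CPM in Y-TTPΔARE. Every TTPΔARE library lay below every WT library of the same age and cell type, a separation in either direction that 5.03%, 13.15% and 8.236% of 13599 genes showed in young HSCs, middle-aged HSCs and MPP3 cells. By the test used below, 0.0435%, 2.22% and 2.54% of genes were called for genotype in these contexts. The fitted log2 fold changes were -0.70 (SE 0.17), -0.48 (SE 0.13) and -1.02 (SE 0.19), that is 1.62-fold, 1.40-fold and 2.03-fold lower. Over all 3 contexts together the log2 fold change was -0.69 (SE 0.09), against a median of 0.04 over all genes above the limit on expression. In WT cells Il1r1 was higher in MPP3 cells than in HSCs by 2.32 on the log2 scale (SE 0.17). The ratio of the group means, MPP3 over HSC, was 4.91 in WT and 3.77 in TTPΔARE. These are bulk samples, in which fewer cells that carry a transcript and less of it per cell cannot be told apart. Il1r1 was tested for age alone, and there it did not pass the test: the middle-aged WT HSCs averaged 18.0 ± 1.26 CPM (SD, n = 5) and the young ones 17.4 ± 2.73 CPM (SD, n = 4), with a log2 difference of 0.00 (SE 0.11, edgeR adjusted p = 0.981).

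**Figure D2:**
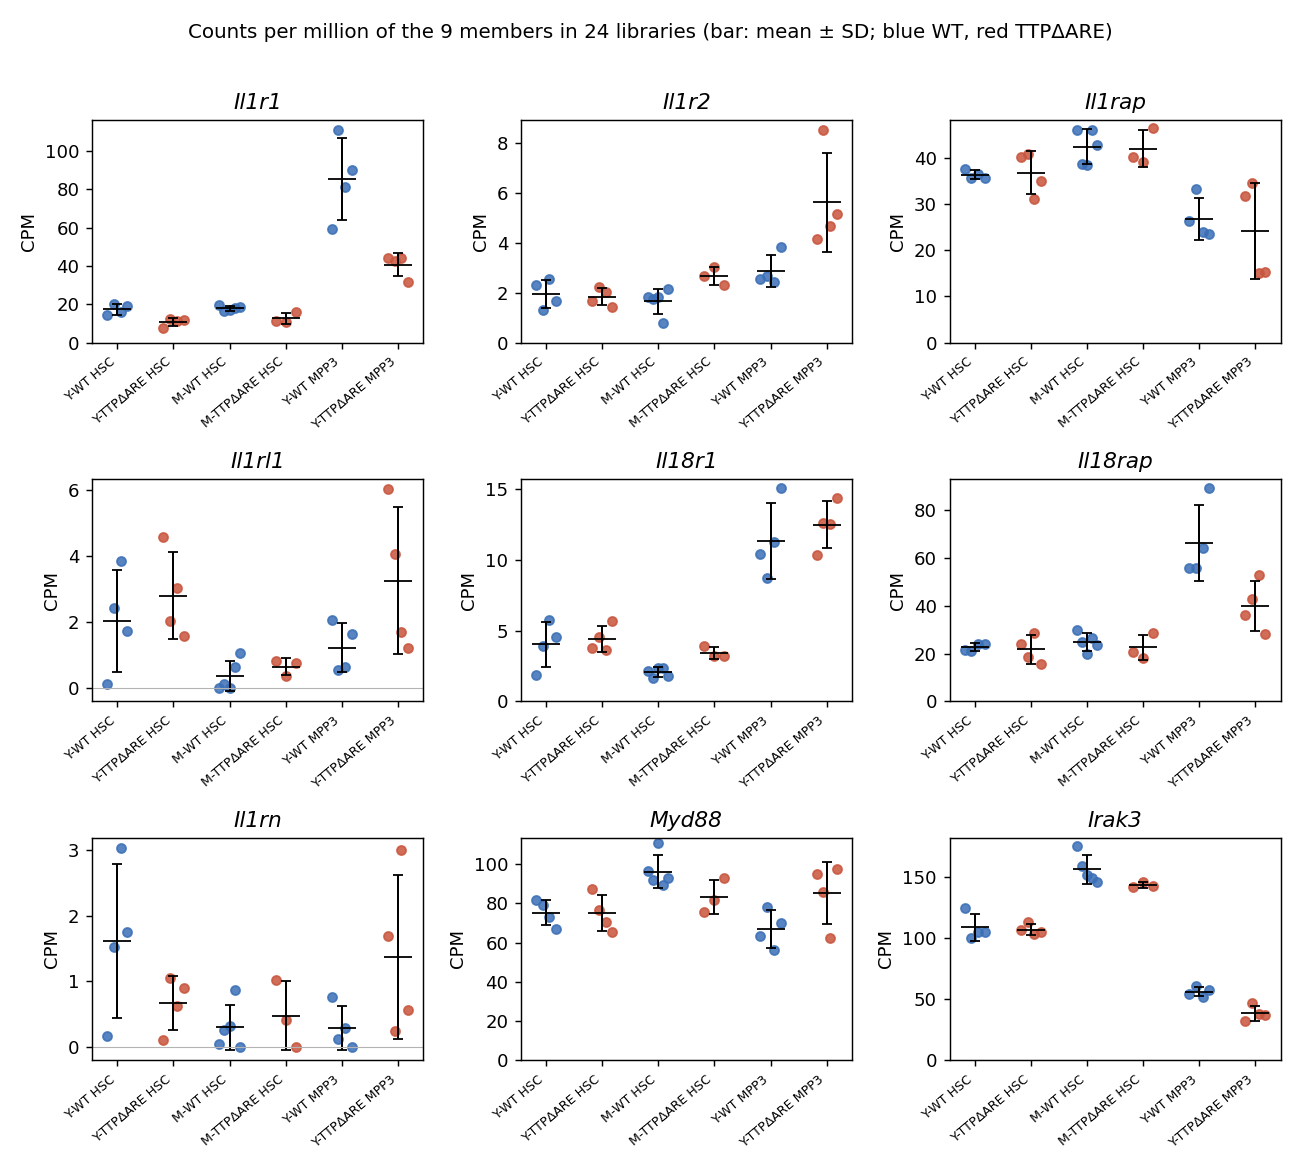
CPM (linear axes) of each of the 9 members in the 24 libraries, with 1 point per library and bars for the group mean and SD (n = 3 to 5). The Il1r1 panel shows TTPΔARE (red) below WT (blue) without overlap in all 3 contexts, and the Il1rl1 and Il1rn panels show libraries near 0 in several groups.

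Il1r2, the decoy receptor, lay opposite to Il1r1 in MPP3 cells. Its level there was 2.54, 2.68, 2.44 and 3.83 CPM in Y-WT and 4.17, 8.53, 4.66 and 5.14 CPM in Y-TTPΔARE, without overlap, with replicate 2 highest. The log2 fold change was 1.00 (SE 0.27), but it did not pass the test (edgeR adjusted p = 0.130). DESeq2 called it, with an adjusted p of 0.0284. In middle-aged HSCs it was 0.784 to 2.13 CPM in M-WT (median 1.81) and 2.32, 2.67 and 3.04 CPM in M-TTPΔARE, again without overlap (log2 fold change 0.73, SE 0.28, edgeR adjusted p = 0.241). In young HSCs the groups overlapped, at 1.32 to 2.53 CPM in Y-WT and 1.44 to 2.22 in Y-TTPΔARE (log2 fold change -0.10, SE 0.33). Over the 3 contexts the log2 fold change was 0.59 (SE 0.16) with an edgeR adjusted p of 0.0477, while the average log2 CPM of 1.497 fell just short of the limit of 1.5 for a call. The adjusted p rose to 0.155 without Y-WT HSC replicate 4 and to 0.116 without Y-TTPΔARE MPP3 replicate 4. Neither cell type (log2 difference 0.57, SE 0.31, edgeR adjusted p = 0.215) nor age (-0.28, SE 0.33, adjusted p = 0.574) passed the test in WT cells.

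Il1rap, the accessory chain shared by the receptors for IL-1 and IL-33, showed no call for genotype. It lay at 35.6 to 37.6 CPM in Y-WT HSCs and 31.0 to 40.8 in Y-TTPΔARE HSCs, with a log2 difference of 0.00 (SE 0.09). In middle-aged HSCs it lay at 38.5 to 46.0 in M-WT and 39.1 to 46.5 CPM in M-TTPΔARE, with a log2 difference of 0.01 (SE 0.09). In MPP3 cells it was 26.3, 33.2, 23.9 and 23.5 CPM in Y-WT and 31.8, 34.4, 15.1 and 15.2 CPM in Y-TTPΔARE. In TTPΔARE replicate 1 thus lay within the WT range, replicate 2 above it and replicates 3 and 4 below it. The log2 fold change was -0.13 (SE 0.26, edgeR adjusted p = 0.882). Between the WT cell types Il1rap was called, lower in MPP3 cells by 0.42 on the log2 scale (SE 0.11, edgeR adjusted p = 0.0246). The call was lost without Y-WT HSC replicate 1 (adjusted p = 0.0689), without Y-WT HSC replicate 3 (0.0553), without Y-WT MPP3 replicate 3 (0.0625) or with all 24 libraries in the fit (0.103). Over the 16 HSC libraries log2 CPM of Il1rap and of the summed receptor genes had a Pearson r of -0.56. Of its 11360 exon bases, 552 are shared with a gene on the other strand, and the strand setting of the counts is not stated.

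The IL-18 receptor genes were both called higher in MPP3 cells than in HSCs of young WT mice. Il18rap, the accessory chain, lay at 21.5, 21.0, 24.2 and 24.2 CPM in HSCs and at 55.8, 55.9, 64.1 and 89.3 CPM in MPP3 cells, a log2 difference of 1.57 (SE 0.14, edgeR adjusted p = 9.85e-05). Il18r1, the binding chain, lay at 1.90, 3.89, 5.79 and 4.53 CPM in HSCs and at 10.5, 8.71, 11.2 and 15.1 CPM in MPP3 cells, a log2 difference of 1.54 (SE 0.30, edgeR adjusted p = 0.00525). Neither pair of groups overlapped, but the share of all genes without overlap between the cell types was not computed, and 24.7% of genes were called higher in MPP3 cells. Both calls held in each of the 17 other settings and left-out libraries.

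By genotype the IL-18 receptor genes differed from each other in pattern, with no call for either over the libraries compared. Il18rap in MPP3 cells was 36.1, 42.8, 52.9 and 28.3 CPM in Y-TTPΔARE, below every Y-WT library, with a log2 fold change of -0.68 (SE 0.23, edgeR adjusted p = 0.259). With all 24 libraries in the fit it was called (-0.65, adjusted p = 0.0486), and by DESeq2 it was not (adjusted p = 0.0779). In HSCs its groups overlapped at both ages, with log2 fold changes of -0.08 (SE 0.17) in young and -0.12 (SE 0.15) in middle-aged mice. Il18r1 in MPP3 cells was 10.3, 12.6, 12.6 and 14.4 CPM in Y-TTPΔARE, within the Y-WT range (log2 fold change 0.17, SE 0.20). In middle-aged HSCs it was 2.17, 1.65, 2.40, 2.38 and 1.78 CPM in M-WT and 3.94, 3.20 and 3.19 CPM in M-TTPΔARE, without overlap (log2 fold change 0.76, SE 0.20, edgeR adjusted p = 0.0868). Its average log2 CPM of 1.41 was under the limit, DESeq2 gave an adjusted p of 0.0357, and with the summed receptor genes (92.3 to 390 CPM in M-TTPΔARE, 42.7 to 209 CPM in M-WT) as a covariate the log2 fold change was 0.59 (adjusted p = 0.405).

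Il18r1 was also called lower with age, by 1.00 on the log2 scale (SE 0.30, edgeR adjusted p = 0.0399), from 4.03 ± 1.63 CPM (SD, n = 4) in Y-WT HSCs to 2.08 ± 0.344 CPM (SD, n = 5) in M-WT HSCs. The receptor genes moved with this difference. Y-WT HSC replicate 1, which held 64.4 CPM of them, had 1.90 CPM of Il18r1, inside the M-WT range of 1.65 to 2.40 CPM, and the 3 Y-WT HSC libraries with 598.5 to 1015 CPM had 3.89 to 5.79 CPM. Over the 16 HSC libraries, log2 CPM of Il18r1 and of the summed receptor genes had a Pearson r of 0.81, and these points share the library and its depth. At the mean receptor density, the exon length of Il18r1 would hold 0.499 CPM in Y-WT and 0.0779 CPM in M-WT HSCs. With the receptor genes as a covariate the difference was -0.16 (SE 0.32, adjusted p = 0.833). The call was also lost without any 1 of 7 of the 9 libraries (edgeR adjusted p from 0.0620 to 0.113) and held without Y-WT HSC replicate 1 (0.00267) or M-WT HSC replicate 4 (0.0469). Markers of the sorted cells differed with age as well, without overlap. In WT HSCs 4 markers of MPP3 cells or of the sort gates (Cd34, Flt3, Cd48 and Fcgr3) summed to 329 to 467 CPM in young and 211 to 260 CPM in middle-aged mice. Most of that sum was Cd34, with means of 324 and 202 CPM. The HSC sort selected against CD34 and against Flk2, the protein of Flt3. The 7 HSC markers summed to 985 to 1208 and 1386 to 1582 CPM. The part of these marker differences in the age differences of Il18r1, and of Irak3 and Myd88 below, was not tested.

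**Figure D3:**
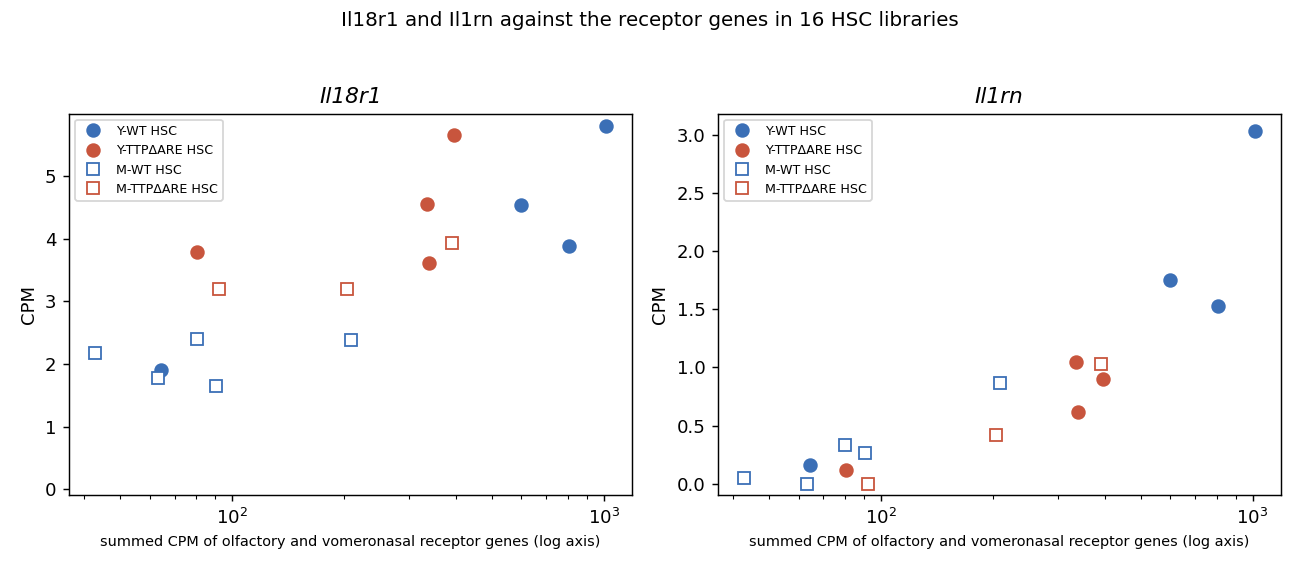
CPM of Il18r1 and Il1rn against the CPM of the olfactory and vomeronasal receptors added together (log axis) in the 16 HSC libraries, with filled circles for young and open squares for middle-aged mice, blue for WT and red for TTPΔARE. Libraries with more receptor-gene counts hold more of both transcripts, with r of 0.81 and 0.92 on the log2 scale.

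Il1rl1, the receptor chain for IL-33 that mast cells and type 2 lymphoid cells are known for, was low and uneven. It lay at 0.110, 2.43, 3.83 and 1.72 CPM in Y-WT HSCs and at 4.55, 2.04, 3.02 and 1.56 CPM in Y-TTPΔARE HSCs, and from 0 to 1.04 CPM over the 8 middle-aged HSC libraries. In MPP3 cells it was 2.07, 0.548, 0.625 and 1.63 CPM in Y-WT and 6.03, 4.05, 1.70 and 1.19 CPM in Y-TTPΔARE. The groups overlapped in all 3 contexts, and the largest of their log2 fold changes, 1.41 in MPP3 cells (SE 0.60), did not pass the test (edgeR adjusted p = 0.382). Over the 16 HSC libraries log2 CPM of Il1rl1 and of the summed receptor genes had a Pearson r of 0.67, and the Y-WT HSC library with the fewest receptor-gene counts, replicate 1, was also the one at 0.110 CPM of Il1rl1. In Y-TTPΔARE HSCs the library with the fewest went the other way: replicate 1 had the fewest receptor-gene counts of its group, at 80.6 CPM, and the highest Il1rl1 of all HSC libraries, at 4.55 CPM. Il1rn, the gene of the receptor antagonist, lay at 0.165, 1.53, 3.03 and 1.75 CPM in Y-WT HSCs and at 0.115 to 1.05 CPM in Y-TTPΔARE HSCs. Its level was 0 to 1.03 CPM over the middle-aged HSC libraries, 0 to 0.763 CPM in Y-WT MPP3 and 0.245 to 2.99 CPM in Y-TTPΔARE MPP3 cells. Over the 16 HSC libraries it had a Pearson r of 0.92 with the summed receptor genes on the log2 scale, the highest of the 9 members, and at the mean receptor density its exon length would hold 0.573 CPM in Y-WT HSCs against a measured mean of 1.62. Neither gene reached the expression limit in any comparison.

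Myd88 and Irak3, the adaptor and the inhibitor downstream of these receptors, were the most abundant members per kilobase of exon, although in Y-WT MPP3 cells Irak3 and Il1r1 lay within their SDs. In CPM, Il1r1 and Il18rap exceeded Irak3 there. Irak3 was called lower in MPP3 cells than in HSCs of young WT mice, at 54.0, 60.5, 52.1 and 58.0 CPM against 125, 100.5, 105 and 105 CPM (log2 difference -0.93, SE 0.10, edgeR adjusted p = 0.000268). It was called higher in middle-aged than in young WT HSCs, at 146 to 176 CPM against 100.5 to 125 CPM (log2 difference 0.48, SE 0.07, adjusted p = 0.00174), and both calls held in all other settings and with each library left out. With age this rested on libraries that also differed in the receptor genes: log2 CPM of Irak3 and of the summed receptor genes had a Pearson r of -0.70 over the 16 HSC libraries, and Myd88 had one of -0.77. With the covariate the age difference of Irak3 was 0.35 (adjusted p = 0.0323). By genotype the values of Irak3 in MPP3 cells did not overlap, with 32.2, 47.2, 37.8 and 36.8 CPM in Y-TTPΔARE and a log2 fold change of -0.51 (SE 0.13). That difference did not pass edgeR's quasi-likelihood test (adjusted p = 0.108), but it was called by DESeq2 (adjusted p = 0.00798) and with all 24 libraries in the fit (0.00346). In HSCs the genotypes overlapped, with log2 fold changes of -0.03 (SE 0.08) in young and -0.09 (SE 0.06) in middle-aged mice. The test of the difference between the MPP3 and HSC genotype effects gave -0.57 (SE 0.17, edgeR adjusted p = 0.209; DESeq2 adjusted p = 0.0366).

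Myd88 was called higher with age in WT HSCs, as 13.7% of all genes were (log2 difference 0.31, SE 0.08, edgeR adjusted p = 0.0174). It lay at 96.3, 91.7, 111, 89.3 and 93.1 CPM in M-WT against 81.6, 79.4, 73.2 and 67.0 CPM in Y-WT. That call was lost in several settings, among them the likelihood ratio test (adjusted p = 0.0548), library totals in place of scaling factors (0.0565), all 24 libraries in the fit (0.0642) and the receptor genes as a covariate (0.183), and without Y-WT HSC replicate 4 (0.0529), and without M-WT HSC replicate 3 the fold fell below the limit of 1.2. In MPP3 cells it was 63.4, 78.3, 56.0 and 70.2 CPM in Y-WT and 95.05, 86.0, 62.5 and 97.4 CPM in Y-TTPΔARE, with replicate 3 of the latter inside the WT range (log2 fold change 0.38, SE 0.13, edgeR adjusted p = 0.256). Cell type did not pass the test in WT mice (log2 difference -0.15, SE 0.11, adjusted p = 0.347). Of the exon bases, 290 of Myd88 and 220 of Irak3 are shared with genes on the other strand.

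**Figure D4:**
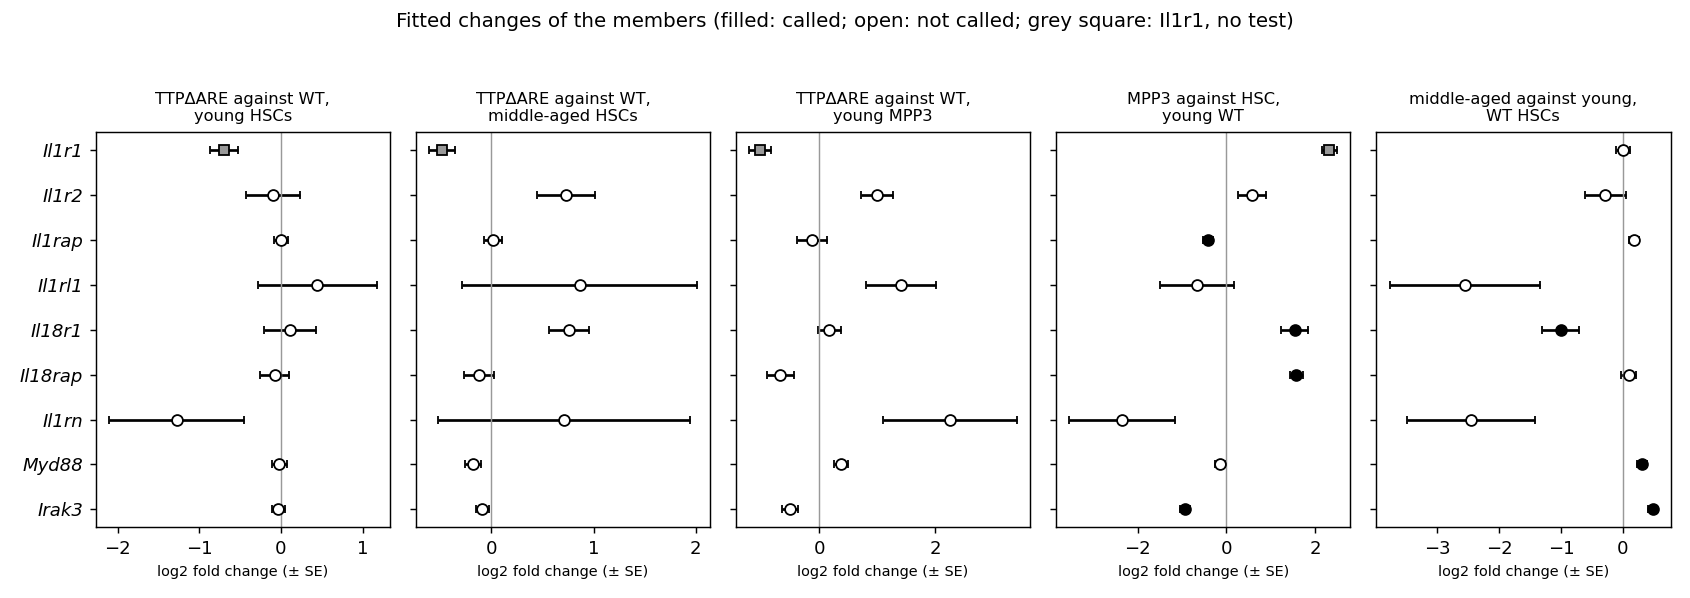
Fitted log2 fold changes with their standard errors for the 9 members in 5 comparisons. Filled circles were called, open circles were not, and grey squares mark Il1r1 where it was used to choose the set and was not tested. The calls lie in the cell type panel (Il1rap and Irak3 lower, Il18r1 and Il18rap higher in MPP3) and in the age panel (Il18r1 lower, Myd88 and Irak3 higher in middle-aged HSCs).

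For a call, a gene needed an adjusted p below 0.05, a fold above 1.2 (not asked of differences between effects) and an average log2 CPM above 1.5. Beside Il1r1, 0 of the 8 other members were called for genotype in young HSCs, where 5 of them were over the expression limit and 0.0435% of all genes over it were called. In middle-aged HSCs it was 0 of 8, with 4 over the limit and 2.22% of genes called, and in MPP3 cells 0 of 8, with 6 over the limit and 2.54% called. At an unadjusted p under 0.05 edgeR had 0, 1 and 4 of the members over the limit in these contexts, against 10.3%, 19.7% and 15.2% of genes. DESeq2 called 0, 0 and 2 of the members, and 304, 835 and 768 genes in all. Over the 3 contexts together it was again 0 of 8 (5 over the limit, 4.41% of genes called, 3 members and 23.06% of genes at an unadjusted p under 0.05, and 0 members by DESeq2). The difference of the genotype effect between MPP3 cells and HSCs was called for 0 of 8 members (0.839% of genes, 3 members and 17.49% of genes at an unadjusted p under 0.05, and 1 member among 333 genes by DESeq2), and that between the ages for 0 of 8 (0.0439% of genes, 0 members and 15.07% of genes at an unadjusted p under 0.05, and 0 members by DESeq2). Between the WT cell types 2 of the 8 were called higher in MPP3 cells, where 24.7% of genes were, and 2 lower, where 13.1% were. With age 2 of all 9 members were called higher in WT HSCs, beside 13.7% of genes, and 1 lower, beside 6.03%. The young WT HSC libraries served in both of the last comparisons and in the genotype comparison of young HSCs. Library totals without scaling factors moved the median of all genes by -0.22 (log2) between the cell types and turned the split of calls from 3314 higher and 1755 lower to 1705 and 3262, while the 4 members called kept their direction. Myd88 was then called lower as well (-0.37, adjusted p = 0.0109). With age the split of 1868 higher and 823 lower became 1105 and 1180.

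Of the 14 marker lists, several of other cells differed in their summed level between the MPP3 genotypes, and a few abundant genes can carry such a sum. The mean sums of the myeloid lists were higher in TTPΔARE. Calls were made for 2 of 6 monocyte and macrophage markers over the expression limit and 2 of 7 of mast cells and basophils. They were made for 1 of 4 of eosinophils and 1 of 5 of early granulocytes and monocytes, beside 2.54% of all genes. The summed level of 7 monocyte and macrophage markers was 423 to 536 CPM in Y-WT and 797 to 1201 CPM in Y-TTPΔARE MPP3 cells. That of 8 mast cell and basophil markers, all of them over 1 CPM on average in both groups, was 40.3 to 81.8 against 103 to 306 CPM, and that of 6 eosinophil markers 16.7 to 54.0 against 31.9 to 243 CPM. The 6 early granulocyte and monocyte markers summed to 366 to 1326 against 1058 to 2342 CPM, and these sums and those of the eosinophil markers overlapped between the genotypes. So did the sum of the 8 mature neutrophil markers, at 7.41 to 94.3 against 15.7 to 125 CPM. The sum of the 5 erythroid markers was also higher, at 12.8 to 62.2 against 4.69 to 8.71 CPM in Y-WT. Lower in Y-TTPΔARE without overlap were the sum of the 5 megakaryocyte and platelet markers (80.1 to 97.6 against 140 to 169 CPM) and the gate gene Kit (465 to 1133 against 1224 to 1609 CPM). The other gate gene, Ly6a, had a higher mean, 253 against 177 CPM, and overlapped. Of the 4 markers of MPP3 cells or of the sort gates, 1 was called, higher in TTPΔARE. Fcgr3 was higher without overlap (19.4 to 25.4 against 3.96 to 7.89 CPM). Flt3 and Cd48 had higher means and Cd34 a lower one, and each of these overlapped. The sum of the 6 stromal markers was lower as well (25.6 to 50.7 against 58.2 to 110 CPM). That gap rested on Pdgfrb alone, with means of 34.0 against 86.3 CPM, while the means of the other stromal markers were higher. The mast cell and basophil sum was highest in Y-TTPΔARE MPP3 replicate 1, at 306 CPM, which also had the highest Il1rl1, at 6.03 CPM, but lowest in replicate 2, at 103 CPM, which had 4.05 CPM of Il1rl1. The part of these cells in the differences of Il1r1, Il1r2, Il18rap, Irak3 and Il1rl1 in MPP3 cells, and of the ligand gene Il1b, was not tested. In HSCs the mast cell and basophil markers Mcpt8 and Cma1 averaged under 0.1 CPM in all 4 groups, and their list summed to at most 14.2 CPM in any HSC library. The 8 mature neutrophil markers summed to 171 CPM in Y-WT HSC replicate 4 and to 6.43 to 20.8 CPM in replicates 1 to 3. In Y-TTPΔARE HSCs they summed to 9.92 to 14.2 CPM. The sum of the 12 T, NK and innate lymphoid cell markers was higher in TTPΔARE HSCs without overlap at both ages. It was 199 to 321 against 150 to 188 CPM in young and 172 to 188 against 135 to 162 CPM in middle-aged mice. Of the markers over the limit 0 of 10 and 1 of 4 were called, beside 0.0435% and 2.22% of all genes. In young HSCs the mean of each of the 12 was higher in TTPΔARE. Among them were Nkg7 (60.85 against 38.3 CPM, without overlap), Cd3e (18.15 against 5.51 CPM), Cd3g (17.25 against 6.95 CPM) and Trac (15.4 against 6.04 CPM). In middle-aged HSCs most of the gap between the sums lay in Rora (means of 61.4 against 44.1 CPM) and Gata3 (68.1 against 57.0 CPM). Klrb1c (24.9 against 31.4 CPM), Nkg7 and Cd4 had lower means in TTPΔARE. The T-cell genes Cd3e (2.47 against 0.567 CPM), Cd3d, Cd3g (2.65 against 0.486 CPM), Trac and Cd8a had higher means there, as did Il7r and Ncr1. Each of these overlapped between the genotypes. The megakaryocyte and platelet sum was lower without overlap, at 127 to 187.5 against 188 to 213 CPM in young and 123 to 152 against 184 to 222 CPM in middle-aged HSCs. That gap lay mostly in Itga2b (79.9 against 111 CPM and 63.9 against 134 CPM), while Ppbp at both ages and Pf4 in middle-aged HSCs had higher means in TTPΔARE. The sum of the 9 endothelial markers overlapped in young HSCs, at 457 to 527 CPM in TTPΔARE against 437 to 754 CPM, with 0 of 9 called, but some had lower means in TTPΔARE: Kdr (30.6 against 75.2 CPM), Cdh5 (4.34 against 13.6 CPM), Sox18 (17.0 against 31.5 CPM) and Cldn5. Vwf had a higher one (129 against 103 CPM). Also without overlap in middle-aged HSCs, the 4 markers of MPP3 cells or of the sort gates summed to 136 to 177.5 CPM in TTPΔARE against 211 to 260 CPM. Cd34 was lower (119 against 202 CPM), and Flt3, Cd48 and Fcgr3 higher in mean. The early granulocyte and monocyte sum was lower (181 to 186 against 211 to 274 CPM). So was the mature neutrophil sum (3.45 to 4.69 against 6.05 to 15.1 CPM). The HSC marker sum was higher (1589 to 1736 against 1386 to 1582 CPM), though not Fgd5, Ctnnal1 and Hoxb5. The part of these marker differences in the levels of Il1r1 in HSCs and of Il1r2 and Il18r1 in middle-aged HSCs was not tested.

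Within the chromosome 1 cluster the genes did not share a single pattern. Il1rl2, next to Il1r1, lay at 16.6 to 18.2 CPM in Y-WT MPP3 and 7.69 to 17.2 CPM in Y-TTPΔARE MPP3 cells, and its log2 fold changes by genotype were -0.52 (SE 0.26), -0.33 (SE 0.22) and -0.46 (SE 0.21) in young HSCs, middle-aged HSCs and MPP3 cells, none of them called (edgeR adjusted p = 0.708, 0.492 and 0.433). Il1rl2 was called higher in MPP3 cells than in HSCs of WT mice (0.62, SE 0.13, adjusted p = 0.00632), as was Map4k4, the kinase gene that precedes Il1r2 (0.55, SE 0.14, adjusted p = 0.0192). Map4k4 had log2 fold changes by genotype of 0.10 (SE 0.13), -0.12 (SE 0.09) and 0.13 (SE 0.14). The sodium-proton exchanger gene Slc9a2 stayed under the expression limit, and Gm3646 and Slc9a4 had too few counts to be tested.

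**Figure D5:**
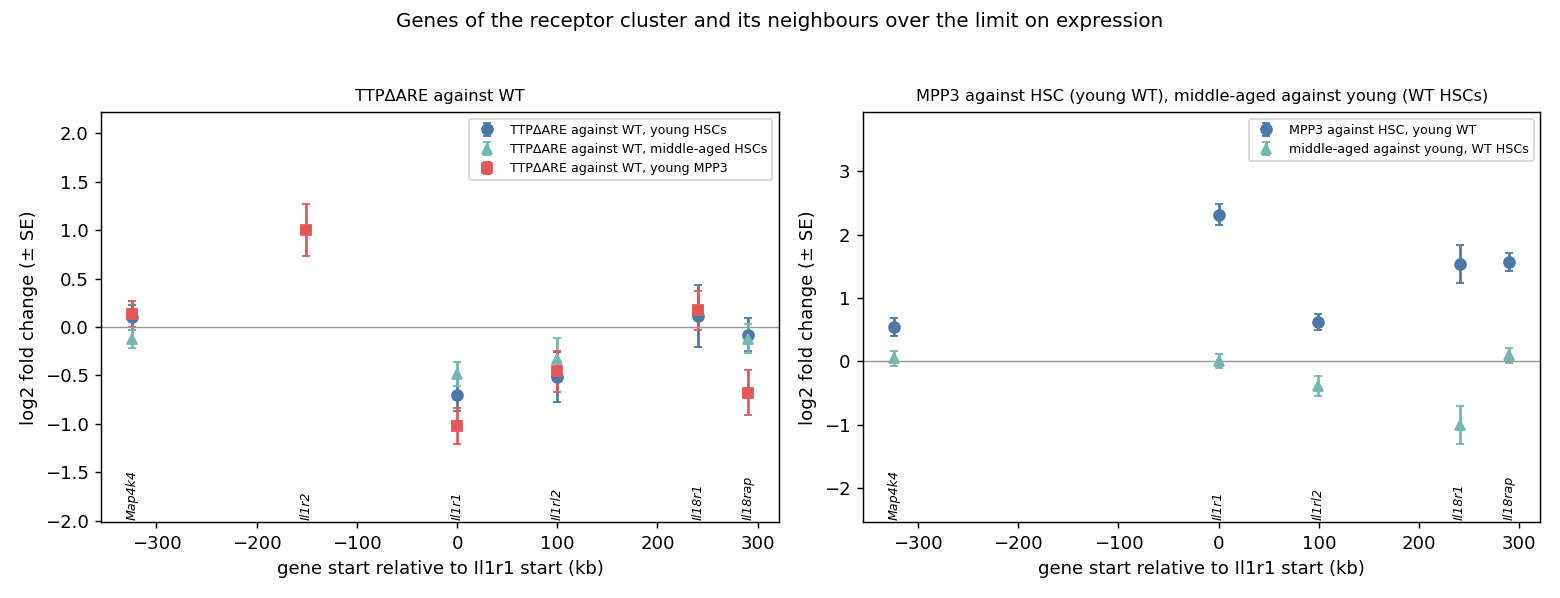
Log2 fold change with its standard error against the distance of each gene's start from the start of Il1r1 (kb), for cluster genes and neighbours over the expression limit in that comparison. By genotype (left) Il1r1 and Il1rl2 lie below 0 in all 3 contexts, Il1r2, which was over the limit in the MPP3 comparison alone, lies above it, and Il18r1 lies within its standard error of 0. On the right all genes shown are higher in MPP3 cells, and Il18r1 is lower with age.

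A list of 39 other genes of the pathway gave the setting of these receptors. Of these, 35 were in the count files and 27 were over the expression limit in each comparison. By genotype 0 of them were called in young HSCs, 1 in middle-aged HSCs and 0 in MPP3 cells, beside 0.0435%, 2.22% and 2.54% of all genes. The list medians were 0.08, -0.08 and 0.04 beside medians of 0.03, -0.03 and 0.00 over all genes. The gene called was Il1rapl2, an accessory-like receptor gene known from neurons, at 20.4 to 22.6 CPM in M-WT and 25.7 to 28.6 CPM in M-TTPΔARE HSCs (log2 fold change 0.38, SE 0.07, edgeR adjusted p = 0.0278). Among the ligands, Il18 was expressed at 24.4 to 46.6 CPM over all libraries, whereas Il1a and Il33 stayed at or below 1.89 and 0.652 CPM in every library. Il1b stayed at or below 0.339 CPM in every HSC and Y-WT MPP3 library and ranged from 0.583 to 14.2 CPM in Y-TTPΔARE MPP3 cells, a log2 fold change of 6.34 (SE 1.16, edgeR adjusted p = 0.0213) that was not called because its average expression was under the limit. These are the libraries with the higher monocyte and macrophage markers, among them Ccr2 at a mean of 160 against 9.19 CPM. Casp1, the protease that matures IL-1 beta and IL-18, had a log2 fold change of 0.25 over the 3 contexts (SE 0.07, edgeR adjusted p = 0.0382), short of the fold required.

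Between the WT cell types 8 of the 27 over the limit were called higher in MPP3 cells, where 24.7% of all genes were, and 2 lower, where 13.1% were (list median 0.21, all genes 0.12). The signalling genes Traf6 (0.48, SE 0.07, edgeR adjusted p = 0.00143) and Map3k7 (0.43, SE 0.08, adjusted p = 0.00321) rose, as did Irak1, Tab1, Ube2n, Ikbkb, Pycard and Il1rl2. Those lower were Il18bp, the soluble trap for IL-18, at 12.1 to 14.3 CPM in MPP3 cells and 19.6 to 28.0 CPM in HSCs (-0.85, SE 0.13, adjusted p = 0.00169), and Il1rapl2 (-2.19, SE 0.67, adjusted p = 0.0389). With age 5 of the 27 were called higher, beside 13.7% of all genes, and 0 lower, beside 6.03%, in WT HSCs (list median 0.11, all genes 0.06): Irak4 (0.41, SE 0.07, adjusted p = 0.00444), Traf6 (0.33, SE 0.07, adjusted p = 0.0102), Ikbkg (0.35, SE 0.06, adjusted p = 0.00348), Il18bp (0.43, SE 0.10, adjusted p = 0.0121) and Il1rapl2 (1.30, SE 0.22, adjusted p = 0.00302).

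Across the 24 libraries the genes most like Il1r1 in log2 CPM, among 13438 genes over the expression limit, were S1pr3, a receptor for sphingosine-1-phosphate (Pearson r 0.96), Slco3a1 (0.96), Mfsd13a (0.95), Nucks1 (0.94) and Ndc1 (0.94). Those most opposite were Art2b (-0.95), Tnfrsf25 (-0.95), Foxa3 (-0.94), Clip3 (-0.94) and Hmgn3 (-0.94). These values are dominated by the difference between cell types, and the points share libraries. On deviations from the 6 group means S1pr3 kept an r of 0.51 and Slco3a1 of 0.49, while Ndc1 fell to 0.34, and within the 16 HSC libraries they had 0.74, 0.73 and 0.24. S1pr3 lay at 3.52 to 5.97 CPM in Y-WT and 2.29 to 3.53 CPM in Y-TTPΔARE HSCs, and at 26.1 to 45.7 CPM in Y-WT and 15.0 to 26.3 CPM in Y-TTPΔARE MPP3 cells. For the other members the 2 closest genes were Fam210b and Tspyl1 for Il1rap (0.94 and 0.92), Dntt and Chdh for Il18r1 (0.96 and 0.96), Brd8 and Gm37676 for Il18rap (0.93 and 0.93), Ccnd3 and Plod3 for Myd88 (0.85 and 0.84), and Sgms1 and Ehd3 for Irak3 (0.99 and 0.98). Among the members themselves Il1r1 had an r of 0.90 with Il18rap and of -0.74 with Irak3, and Il18r1 of -0.92 with Irak3, but on deviations from the group means these were 0.27, 0.05 and -0.22.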

How the data were processed

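According to the paper and the labels, the authors used Trim Galore! and Cutadapt for trimming and STAR with GENCODE M22 for alignment to mm10, and deposited raw counts per gene symbol from featureCounts. Strand and multimapping settings are not given in the sources used here. The paper and the labels name different SMARTer kits. Genes were fitted in R 4.3.3 with edgeR 4.0.16 (quasi-likelihood test, TMM factors, filterByExpr at 10 counts, 15 in total) over the groups compared, without a replicate block, and p-values were adjusted over all genes tested by Benjamini-Hochberg. Standard errors were taken as the log2 fold change divided by the root of F. CPM use TMM factors over 24 libraries. Of 55376 symbols 54510 matched GENCODE M21, which gave lengths and coordinates. Likeness used log2 CPM with a prior count of 2, without immunoglobulin and T-cell receptor segments.

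The members, the pathway and marker lists and the tests were chosen with earlier results of these data known. All 9 members are named whatever their values, and pathway genes where called or as examples. Alternatives were DESeq2 1.42.0, a likelihood ratio test, other scaling factors, no filters, a replicate block, all 24 libraries in 1 fit and each library left out; a covariate of receptor genes was added after seeing the data. The test was checked on simulated counts. All 8 MPP3 libraries were used, although the study used fewer of the Y-TTPΔARE MPP3 libraries without naming which.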

Additional observations from a re-analysis of the deposited data

Results flagged for a closer look

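Il1r1 in Y-TTPΔARE MPP3 replicate 4 was far from the other libraries of its group, at 31.6 CPM against 42.9, 44.2 and 44.3 CPM in replicates 2, 3 and 1. It was the only such value among 45 sets of 4 or 5 libraries examined for the 9 members, and chance would be expected to mark about 5% of such sets. The library stood apart in other values too. Its Ly6a and Kit together came to 745 CPM against 1164 to 1389 CPM in the other replicates, its monocyte and macrophage markers to 1201 against 797 to 892 CPM, and its T, NK and innate lymphoid cell markers to 514 against 271 to 319 CPM. Its chi-square distance per gene to the other replicates was 121 to 247, and theirs to each other 55.4 to 85.3. The part of these differences in its level of Il1r1 was not tested. Without that library the log2 fold change of Il1r1 by genotype in MPP3 cells was -0.93, against -1.02 with it. On the WT side Y-WT MPP3 replicate 1 also stood apart, at a distance of 115 to 198 from the other replicates. Theirs to each other were 43.2 to 57.4. It had the lowest Il1r1 of its group, at 59.6 CPM, and without it the log2 fold change was -1.17.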

How the results depend on the processing

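Il1r1 kept its direction in all 100 settings and left-out libraries over the genotype comparisons and the cell type comparison, with log2 fold changes of -0.74 to -0.51 in young HSCs, -0.67 to -0.37 in middle-aged HSCs and -1.17 to -0.90 in MPP3 cells. Its value moved by more than its SE in young HSCs without Y-TTPΔARE replicate 1 (-0.51), in middle-aged HSCs without M-TTPΔARE replicate 3 (-0.67) and between the cell types with library totals in place of scaling factors (2.09). The calls of Il18r1 and Il18rap by cell type and of Irak3 by cell type and age held in every one. Counts of genes called were less stable. By genotype in young HSCs 6 genes became 304 with DESeq2, 146 with the likelihood ratio test, 73 without the count filter, 18 with all 24 libraries and 29 with the receptor covariate. With a library left out they became 0 to 12. The count was 0 without Y-WT HSC replicate 2 or 4 or Y-TTPΔARE HSC replicate 1 or 3, and 12 without Y-WT HSC replicate 1. In middle-aged HSCs 298 became 835 (DESeq2), 842 (no count filter), 53 (all libraries), 94 (covariate) and 68 to 299 with a library left out, the lowest without M-TTPΔARE HSC replicate 3. In MPP3 cells 326 became 768 (DESeq2), 540 (likelihood ratio), 1244 (all libraries) and 185 to 347, the lowest without Y-TTPΔARE MPP3 replicate 1. Over the 3 contexts 599 ranged from 398 (without M-TTPΔARE HSC replicate 3) to 790, between cell types 5069 from 3623 to 6499, and with age 2691 from 1990 to 3658, reaching 4053 without the expression limit and 1337 with the covariate. The difference of genotype effects between cell types went from 113 to 333 (DESeq2), 202 (likelihood ratio), 261 (all libraries) and 66 (without Y-WT HSC replicate 4) to 132, and that between ages from 6 to 160, 27, 2 and 0 to 56 (the highest without Y-WT HSC replicate 1), with 16 without the count filter and 2 with the covariate. Members called by genotype in MPP3 cells went from 0 to 2 with DESeq2 (Il1r2 and Irak3) and to 3 with all libraries (Il18rap, Myd88 and Irak3), over the 3 contexts from 0 to 1 (Il1r2) without the expression limit and to between 0 and 1 with a library left out, and in the difference between cell types to 1 with DESeq2 (Irak3). With age they went from 3 to 1 with the covariate and to between 1 and 3 with a library left out. No pair of groups compared had every correlation between deviations of same-numbered samples over 0.1 (range -0.145 to 0.211, and 0.0250 to 0.180 between Y-WT HSCs and MPP3 cells, where 2 of 4 libraries of each correlated best with their own number), so the numbers were not taken to pair them. The Y-TTPΔARE HSC and MPP3 libraries, which enter together in the fit over the 3 contexts and in the difference of genotype effects, had 0.145 to 0.229, and each of these 4 and 4 libraries correlated best with its own number, a hint from the data and not from the design. The replicate block changed 298 to 108 genes, 2691 to 1580 and 6 to 3 in the middle-aged, age and genotype by age comparisons, and 3 members to 1 with age, where Il18r1 had an adjusted p of 0.120 and Myd88 of 0.0605. Il1rl1 and Il1rn varied widely between libraries, with SEs of 0.60 to 1.23 for their genotype differences within a single context, and Il1rl1 held 0 to 41 counts per library in M-WT HSCs.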

Other observations

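Within each library the level of Il1r1 was set against that of its decoy Il1r2, both as CPM per kilobase of exon, and the values are given without a test because Il1r1 was chosen for its pattern. The ratio was 7.03 to 12.4 in Y-WT MPP3 and 1.51 to 3.18 in Y-TTPΔARE MPP3 cells. In HSCs it was 1.87 to 4.58 in Y-WT, 1.42 to 2.48 in Y-TTPΔARE, 2.64 to 6.94 in M-WT and 1.06 to 2.05 in M-TTPΔARE. The accessory chain gene Il1rap stood at 0.990 to 1.47 times Il1r1 in Y-WT HSCs and at 0.146 to 0.247 times in Y-WT MPP3 cells. The ratio of Il1rap to Il1r1 depends on the length used. Over the longest transcript instead of all exons, Il1rap averaged 8.05 and Il1r1 2.99 CPM per kilobase in Y-WT HSCs. In Y-WT MPP3 cells these were 5.91 and 14.7. Il18rap stood at 3.80 to 4.58 times Il18r1 in Y-WT MPP3 and at 1.40 to 3.00 times in Y-TTPΔARE MPP3 cells. In HSCs that ratio overlapped between the genotypes, at 2.98 to 8.09 in Y-WT and 1.95 to 5.69 in Y-TTPΔARE, and at 5.90 to 10.8 in M-WT and 3.78 to 6.39 in M-TTPΔARE.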
